A study of Mus musculus with 6 samples.

Results

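This report describes the RNA of 10 receptors that T cells use to restrain or to assist their activation, in CT26.WT tumors of mice given IFN-γ or PBS. The genes were taken from the count table by symbol. They were Pdcd1, Ctla4, Lag3, Havcr2, Tigit, Btla and Cd160, which are mainly known as co-inhibitory receptors, and the costimulatory receptors Cd28, Icos and Cd226. All 10 of the 55487 genes in the table were found, and all 10 were among the 15114 genes that passed the filter on low counts. CT26.WT is a colon carcinoma line of BALB/c mice. Its cells grew as subcutaneous tumors in immunocompetent male BALB/c mice bought at 4 weeks of age. Every 48 h, mice of the IFN-γ group (3 tumors sequenced, called treated tumors here) had 100 µL injected into the tail vein, with IFN-γ at 100 ng/ml, and mice of the control group (3 tumors) had PBS by the same route. The line was labelled WT in both groups, and the RNA came from whole tumors, so fewer T cells and less RNA per T cell cannot be told apart in any value below. Nothing in the labels states how the tumors of a group relate to each other. The p-values set group differences against the spread among the tumors in each comparison, and speak for these tumors only.

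T cells need a signal through the T cell receptor and a second signal from costimulatory receptors to become fully active. CD28, which binds CD80 and CD86 on antigen-presenting cells, provides the classical second signal, and CTLA-4 binds the same ligands more strongly and holds activation back. PD-1, LAG-3, TIM-3 (the product of Havcr2) and TIGIT appear on activated T cells, stay high on chronically stimulated T cells in tumors, and are targets or candidate targets of checkpoint therapy. IFN-γ, released by T cells and natural killer (NK) cells, is a well-known inducer of MHC class II and of PD-L1, the ligand of PD-1.

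The 6 libraries held between 15759300 and 17559680 counts, so that 3 counts, the limit that a count of 0 allows, correspond to 0.169 to 0.188 CPM (counts scaled to TMM library sizes), counting error only. Treated tumor 3 stood apart. The summed CPM of 12 T cell markers was 64.8 to 100.3 in the control tumors, 134.8 and 160.7 in treated tumors 1 and 2, and 51.9 in treated tumor 3, the lowest of the 6. All 12 T cell markers had more than 3 counts in every tumor. The 6 NK cell markers summed to 49.0 to 77.4 CPM in control tumors, to 107.8 and 118.0 in treated tumors 1 and 2, and to 37.2 in treated tumor 3. Of 7 epithelial and colon markers, Cdx2 had 0 counts in all 6 tumors and 3 had more than 3 counts in each, so the label colon carcinoma had little marker support apart from Krt20, Krt18 and Cdh1. That list, of which Krt20 made up most, summed to 165.5 to 187.6 CPM in control tumors, to 128.8 and 122.9 in treated tumors 1 and 2, and to 283.3 in treated tumor 3. The study's own comparisons used fewer treated tumors than were sequenced, and one of them fewer control tumors, without naming which were used. Treated tumor 3 was left out here for its marker values, and receptors and ligands that passed a test are given for all 6 tumors and for the 5 tumors without it.

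The sequences before the start sites of 4 receptor genes are shown, 3 of them for values described below and that of Cd160 for a motif match. Pdcd1 and Havcr2 passed the test in the 5 tumors. Tigit was the most abundant per length and was not higher in the IFN-γ group. Of the 6 members whose windows were scanned, Cd160 alone had a match to the GAS motif that STAT dimers recognise. Windows of Lag3, Cd28, Icos and Cd226 were not scanned. Each sequence shown is the 250 bases before a RefSeq start (GRCm38.p6), read along the gene. Capitals mark matches on either strand to TTCNNNGAA (GAS) or to GGAAA, the core letters of NFAT sites, which read as TTTCC on the other strand. The Pdcd1 window lies at chr1:94052554-94052803 (minus strand), that of Havcr2 at chr11:46454681-46454930 (plus), that of Tigit at chr16:43664185-43664434 (minus), and that of Cd160, before the inner of its RefSeq starts, at chr3:96814522-96814771 (minus).
Pdcd1: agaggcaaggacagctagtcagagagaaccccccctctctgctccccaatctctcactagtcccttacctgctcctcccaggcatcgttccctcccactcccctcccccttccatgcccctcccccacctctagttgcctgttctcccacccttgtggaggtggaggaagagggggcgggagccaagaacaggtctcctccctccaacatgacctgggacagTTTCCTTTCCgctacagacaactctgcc
Havcr2: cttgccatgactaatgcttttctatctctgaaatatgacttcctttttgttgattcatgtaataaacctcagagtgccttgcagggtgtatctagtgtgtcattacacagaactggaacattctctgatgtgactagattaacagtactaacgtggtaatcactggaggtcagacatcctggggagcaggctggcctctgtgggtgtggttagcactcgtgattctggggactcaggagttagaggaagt
Tigit: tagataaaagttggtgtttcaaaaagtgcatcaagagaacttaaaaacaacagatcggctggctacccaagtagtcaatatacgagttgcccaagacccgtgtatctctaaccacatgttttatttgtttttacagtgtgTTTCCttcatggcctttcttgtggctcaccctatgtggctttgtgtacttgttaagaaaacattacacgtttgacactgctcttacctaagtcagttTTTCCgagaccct
Cd160: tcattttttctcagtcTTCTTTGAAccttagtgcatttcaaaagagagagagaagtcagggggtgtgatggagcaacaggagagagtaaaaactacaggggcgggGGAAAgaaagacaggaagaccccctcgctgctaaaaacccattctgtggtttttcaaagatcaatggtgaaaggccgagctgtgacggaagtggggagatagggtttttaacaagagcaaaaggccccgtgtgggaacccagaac
Of all 32851 mouse windows of this length, 55.6% held GGAAA, 7.02% held TTCNNNGAA and 2.98% held the ISRE motif of interferon-regulated genes. Pdcd1 and Tigit had 2 matches to GGAAA each, and Cd160 had 1 match to GGAAA and 1 to TTCNNNGAA. The Havcr2 window had none of these matches, and none of the 4 windows matched the ISRE motif. Cd160 was chosen for its GAS match, and the window before its outer RefSeq start (chr3:96829352-96829601) had 0 matches to any of the 3 motifs.

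Per kilobase of exon, Tigit RNA was the most abundant of the 10, at 16.1 ± 0.99 CPM per kb in control tumors and 14.7 ± 1.87 in treated tumors (SD, n = 3 each). Its range over the 6 tumors did not overlap that of Pdcd1, the next in order at a mean of 5.35 ± 2.03 CPM per kb (SD, 6 tumors). Havcr2 at 3.68, Lag3 at 3.14, Icos at 1.84 and Ctla4 at 1.72 CPM per kb followed. Cd226 at 1.18, Cd28 at 0.940, Cd160 at 0.929 and Btla at 0.761 closed the order. Below Tigit, each gene's range over the tumors overlapped that of its neighbor. Within tumors, Pdcd1 was above Havcr2 and Lag3 above Icos in 6 of 6, while the other neighbors changed places in at least 1 tumor. Tigit had the shortest exon model, 919 bases, against 1930 to 6122 bases for the other 9. In CPM without scaling by length, Tigit was below Pdcd1 and Havcr2 in treated tumors 1 and 2. Per kilobase in control tumors, Tigit was also above the T cell genes Cd3d (2.88), Cd3e (1.53) and Cd3g (3.59). Which cells its reads came from was not tested.

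**Figure D1:**
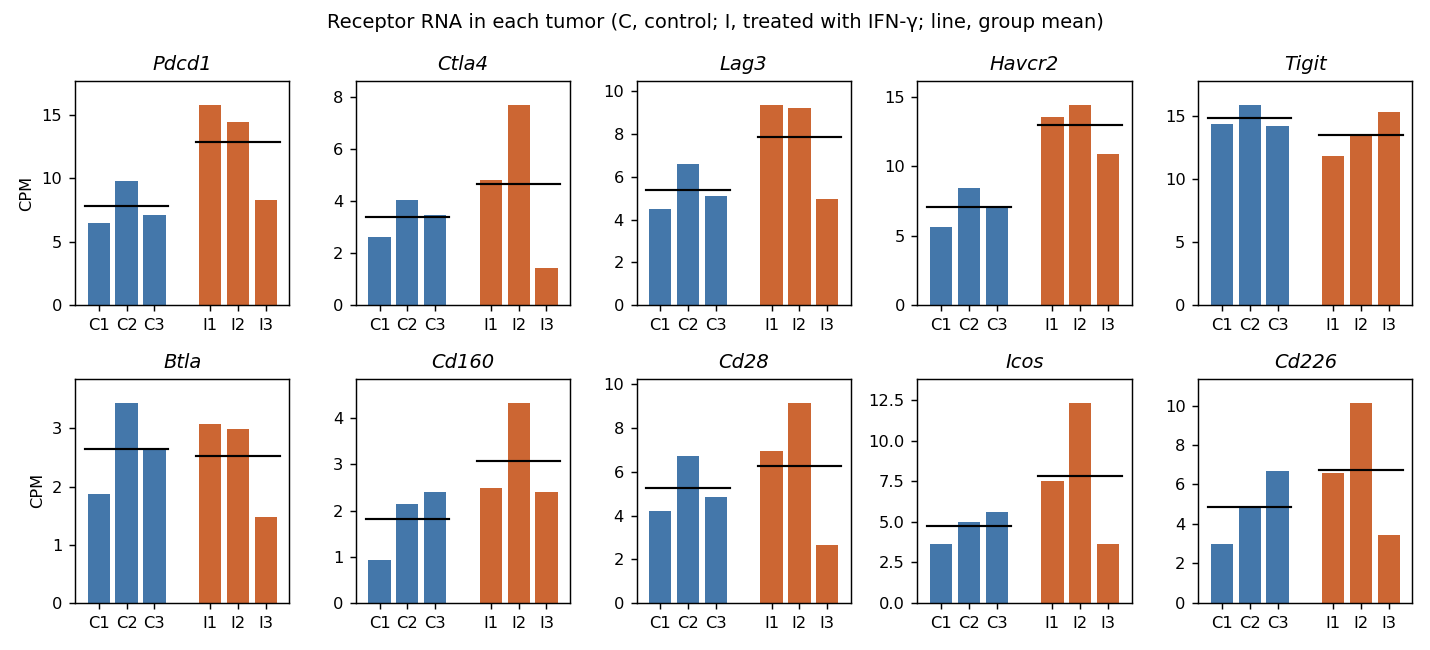
CPM (vertical axes, starting at 0, each with its own scale) of the 10 receptor genes in control tumors 1 to 3 (C, blue) and treated tumors 1 to 3 (I, orange), with the group mean as a black line. Ctla4, Cd28, Icos and Cd226 drop in treated tumor 3 to within or below the control range, Havcr2 stays above every control tumor there, and Tigit differs little among the 6.

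The comparison of the groups asks whether repeated IFN-γ injection changed the RNA of these receptors in the tumor. In all 6 tumors, 0 of the 10 receptors passed edgeR's quasi-likelihood test at an adjusted p of 0.05. Of all genes tested, 12 were higher in the IFN-γ group (0.0794%) and 5 were lower (0.0331%). At an unadjusted p under 0.05 there were 2 receptors, Pdcd1 and Havcr2, beside 1539 of all genes. DESeq2 called 1 receptor, Havcr2, but it also called more of all genes, 125 higher and 71 lower. Fold changes on the log2 scale were positive for 8 of the 10, with a median of 0.50 against 0.0015 for all genes. Without treated tumor 3, Pdcd1 and Havcr2 rose, 2 of 10, and 0 fell. That tumor was left out for its marker values, low T cell RNA among them. All receptors but Tigit were lower in it than in the other treated tumors. Leaving it out thus raises their fold changes, and this fit is not independent support for a rise. In that fit 2.46% of the 15487 genes were higher and 0.723% were lower. Of the 10 receptors, 9 then had positive fold changes, with a median of 0.82 against -0.016 for all genes, and 7 had an unadjusted p under 0.05, as did 2522 of the 15487 genes. Among the fits with edgeR's default filter that used all 6 tumors or left out 1, receptors were called in the one without treated tumor 3. The fold changes of Tigit lay below the median of all genes in both fits, and that of Btla did so with 6 tumors. The groups did not overlap for 2 receptors, Havcr2 and Cd160, both higher in the IFN-γ group, as for 7.62% of all genes, and 0 receptors were lower without overlap, against 7.5% of all genes.

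Pdcd1 (chromosome 1, 94038305 to 94052553, GRCm38) encodes PD-1, which recruits the phosphatase SHP-2 to damp T cell receptor and CD28 signals. It was at 6.50, 9.81 and 7.09 CPM in control tumors 1, 2 and 3, and at 15.79, 14.48 and 8.29 CPM in treated tumors 1, 2 and 3. treated tumors 1 and 2 lay above all controls, and treated tumor 3 lay between control tumors 2 and 3. The log2 fold change was 0.72 (SE 0.27, adjusted p = 0.402, edgeR) in all 6 tumors. Without treated tumor 3 it was 0.95 (SE 0.20, adjusted p = 0.0407, edgeR). With control tumor 3 also left out, its adjusted p was 0.0594.

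Havcr2 (chromosome 11, 46454935 to 46481255) encodes TIM-3, found on exhausted T cells and also on macrophages and dendritic cells. Its levels were 5.63, 8.46 and 7.14 CPM in the control tumors and 13.58, 14.42 and 10.88 CPM in the treated tumors. Every treated tumor lay above every control tumor, and the mean was 1.83-fold higher (12.96 ± 1.85 against 7.08 ± 1.42 CPM, SD, n = 3 each). The log2 fold change was 0.87 (SE 0.19, adjusted p = 0.222, edgeR) with all 6 tumors and 0.97 (SE 0.19, adjusted p = 0.0338, edgeR) with 5. In all 6 tumors it passed with DESeq2 (adjusted p = 0.0104) and without a filter on low counts (adjusted p = 0.0324, edgeR). These settings called 125 and 150 genes as higher, against 12 in the main fit. Summed markers of macrophages and of dendritic cells were higher in the same 2 tumors in which Havcr2 was highest. The 8 macrophage genes summed to 2026 to 2236 CPM in control tumors, to 2879 and 3149 in treated tumors 1 and 2, and to 2151, within the control range, in treated tumor 3. Of the 8, Mrc1 went the other way (log2 fold change -0.16 in the 5 tumors). The 7 dendritic cell genes summed to 28.8 to 42.9 CPM in control tumors, to 51.5 and 54.6 in treated tumors 1 and 2, and to 31.2 in treated tumor 3. Of these, Cd209a and Zbtb46 went the other way (log2 fold change -0.07 and -0.04 in the 5 tumors). Siglech and Ccr7 in treated tumors 1 and 2 overlapped the controls, while Xcr1, Clec9a and Flt3 lay above them. The log2 ratio of Havcr2 to the macrophage sum was -8.49, -8.05 and -8.23 in control tumors and -7.73, -7.77 and -7.63 in treated tumors, a difference of 0.55 between the means. In this ratio each treated tumor lay above each control tumor. No ratio to the dendritic cell genes was taken. The part of macrophage and dendritic cell RNA in the Havcr2 values was not tested.

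Lag3 (chromosome 6, 124904361 to 124911705) encodes a CD4-related receptor that binds MHC class II. Its CPM was 4.50, 6.60 and 5.09 in the controls and 9.35, 9.22 and 4.95 in the treated tumors, where tumor 3 fell within the control range. The log2 fold change was 0.54 (SE 0.28, adjusted p = 0.559, edgeR) in 6 tumors and 0.77 (SE 0.21, adjusted p = 0.095, edgeR) in 5. DESeq2 on the 5 tumors, an analysis added after the data were seen, gave an adjusted p of 0.0457. It called 624 genes as higher and 249 as lower. Ctla4 (chromosome 1, 60887000 to 60915832), the inhibitory rival of CD28 and abundant on regulatory T cells, was at 2.63, 4.06 and 3.49 CPM in controls and at 4.82, 7.70 and 1.42 CPM in treated tumors. It had the widest spread of the 10, with the highest level in treated tumor 2 being 5.41 times the lowest in treated tumor 3. The log2 fold change of 0.45 (SE 0.50, adjusted p = 0.820, edgeR) in 6 tumors, and of 0.87 (SE 0.28, adjusted p = 0.163, edgeR) in 5, did not pass.

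Tigit (chromosome 16, 43648867 to 43664146) encodes a receptor of T and NK cells that competes with CD226 for CD155, the product of Pvr. It was at 14.38, 15.84 and 14.17 CPM in control tumors and at 11.84, 13.38 and 15.27 CPM in treated tumors. The groups overlapped, and the level in treated tumor 3, which was poor in T cell RNA, was above those in treated tumors 1 and 2. With a coefficient of variation of 10.05% over the 6 tumors, Tigit varied least of the 10, for which the others ranged from 29.3% to 53.5%. Its log2 fold change was -0.13 (SE 0.14, adjusted p = 0.804, edgeR) in 6 tumors and -0.24 (SE 0.14, adjusted p = 0.452, edgeR) in 5. The counts behind it were 204 to 281 per tumor.

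Btla and Cd160 both bind HVEM, the product of Tnfrsf14, and both had few reads. Btla (chromosome 16, 45224315 to 45257670), which B cells also carry, was at 1.88, 3.44 and 2.63 CPM in control tumors and at 3.08, 2.99 and 1.48 CPM in treated tumors, with overlapping groups. Its log2 fold change was -0.07 (SE 0.35, adjusted p = 0.970, edgeR) in 6 tumors and 0.18 (SE 0.31, adjusted p = 0.839, edgeR) in 5. The 6 B cell markers summed to 8.88 to 14.2 CPM in control tumors and to 7.05 to 9.71 CPM in treated tumors, and their part in the Btla values was not tested. Cd160 (chromosome 3, 96798763 to 96829351), a receptor of NK cells and cytotoxic T cells, was at 0.94, 2.14 and 2.4 CPM in controls and at 2.5, 4.34 and 2.41 CPM in treated tumors. The groups were separated only by the step from 2.4 in control tumor 3 to 2.41 in treated tumor 3, which rest on 42 and 39 counts. Its log2 fold change was 0.74 (SE 0.40, adjusted p = 0.572, edgeR) in 6 tumors and 0.88 (SE 0.42, adjusted p = 0.354, edgeR) in 5. Cd160 shares 68 bases of exon with Pdzk1 on the opposite strand, so its reads are uncertain where the counting did not use strand.

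Cd28, Ctla4 and Icos lie next to each other on chromosome 1, in that order. Cd28 (60716800 to 60773359) was at 4.19, 6.71 and 4.86 CPM in control tumors and at 6.97, 9.16 and 2.66 CPM in treated tumors. Icos (60977927 to 61000320), the costimulator of helper and regulatory T cells whose ligand is encoded by Icosl, was at 3.63, 5.02 and 5.6 CPM in controls and at 7.55, 12.34 and 3.65 CPM in treated tumors. In both genes treated tumors 1 and 2 lay above every control, while treated tumor 3 lay below every control for Cd28 and near the lowest control for Icos. The log2 fold change of Cd28 was 0.25 (SE 0.41, adjusted p = 0.879, edgeR) in 6 tumors and 0.61 (SE 0.25, adjusted p = 0.265, edgeR) in 5. That of Icos was 0.72 (SE 0.40, adjusted p = 0.587, edgeR) and 1.05 (SE 0.26, adjusted p = 0.0793, edgeR), the latter the largest of the 10 in the 5 tumors. DESeq2 on the 5 tumors gave an adjusted p of 0.0149 for Icos, in the fit that called 624 genes as higher.

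Cd226 (chromosome 18, 89176967 to 89272229) encodes the activating partner of TIGIT on T and NK cells. Its CPM was 3.0, 4.85 and 6.69 in control tumors and 6.56, 10.14 and 3.46 in treated tumors. Controls spanned more than a doubling, and treated tumor 2 alone lay above all of them. It had a log2 fold change of 0.47 (SE 0.41, adjusted p = 0.761, edgeR) in 6 tumors and 0.77 (SE 0.33, adjusted p = 0.288, edgeR) in 5.

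**Figure D2:**
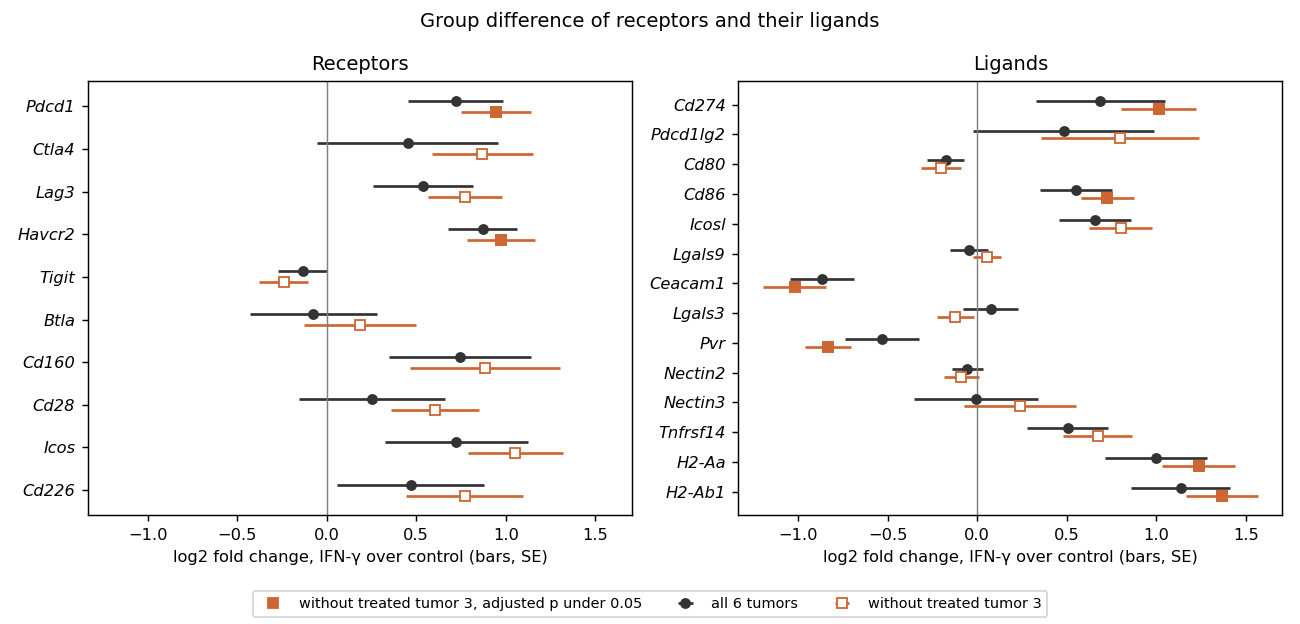
Log2 fold change of IFN-γ over control tumors (horizontal axis) with its SE for the 10 receptors (left) and the 14 tested ligand genes (right), in all 6 tumors (circles) and without treated tumor 3 (squares, filled where the adjusted p of edgeR was under 0.05). Filled squares mark Pdcd1 and Havcr2 among the receptors and 6 of the ligands, of which Ceacam1 and Pvr lie below 0.

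The receptors were next set beside the T cell RNA of each tumor, which was followed through the genes of the CD3 chains. Summed, Cd3d, Cd3e and Cd3g were at 18.8, 25.9 and 25.0 CPM in control tumors, at 36.0 and 44.8 in treated tumors 1 and 2, and at 14.8 in treated tumor 3. Relative to the control mean this was 1.74-fold in the first pair and 0.636-fold in the last. The fold of treated tumors 1 and 2 over the control mean was 1.94 for Pdcd1, 1.98 for Havcr2, 2.09 for Icos, 1.87 for Cd160, 1.85 for Ctla4, and 1.72 for Lag3 and Cd226. It was 1.54 for Cd28, 1.15 for Btla and 0.852 for Tigit. In treated tumor 3 the same measure was 0.420 for Ctla4, 0.506 for Cd28, 0.561 for Btla, 0.715 for Cd226 and 0.768 for Icos, while it was 0.917 for Lag3, 1.03 for Tigit, 1.06 for Pdcd1, 1.32 for Cd160 and 1.54 for Havcr2.

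The receptors were then expressed relative to the CD3 genes, as the log2 ratio of each receptor to their sum. Cd28, Icos and Ctla4 kept the most even ratios, with SDs of 0.17, 0.18 and 0.19 over the 6 tumors. Tigit had the most uneven ratio (SD 0.68). It was -0.37, -0.69 and -0.80 in control tumors, -1.56 and -1.71 in treated tumors 1 and 2, and 0.05 in treated tumor 3. Since Tigit itself differed little among the tumors, this ratio largely mirrors the CD3 sum in its denominator. For Havcr2 the ratio was -1.74 to -1.56 in control tumors, -1.37 and -1.60 in treated tumors 1 and 2, and -0.42 in treated tumor 3, which stood 1.23 above the control mean. Pdcd1 ran from -1.75 to -1.36 in controls and was at -1.16, -1.60 and -0.80 in the treated tumors, and Lag3 ran from -2.19 to -1.89 and was at -1.89, -2.22 and -1.49. Cd160 was at -3.74, -3.32 and -3.14 in controls and at -3.61, -3.23 and -2.39 in the treated tumors. In these 5 genes the highest ratio was that of treated tumor 3. Two-sided exact permutation tests of the group means gave p from 0.2 to 0.9 for the 10 ratios, and the groups overlapped in all 10. With 3 tumors against 3 this test cannot give less than 0.1, so no ratio could have passed 0.05 by it.

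**Figure D3:**
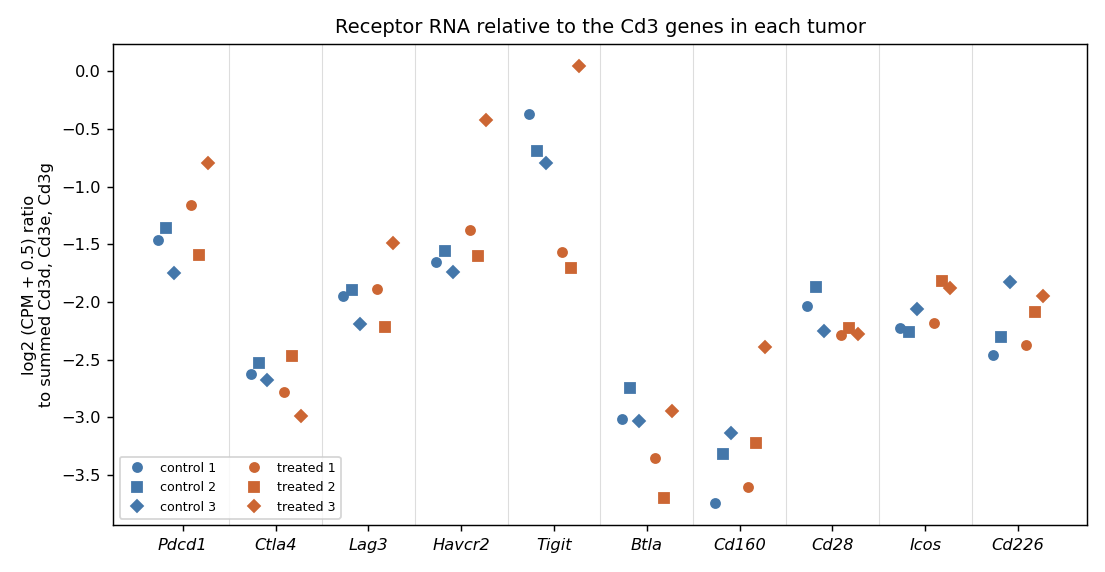
Log2 ratio of each receptor's CPM plus 0.5 to the summed CPM plus 0.5 of Cd3d, Cd3e and Cd3g (vertical axis) in each of the 6 tumors, control tumors in blue and treated tumors in orange. The points of Ctla4, Cd28 and Icos lie close together, whereas Tigit is lowest in treated tumors 1 and 2 and highest, at 0.05, in treated tumor 3.

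Receptors that share a ligand or a family were compared by their ratio in each tumor. The log2 ratio of Ctla4 to Cd28 was -0.56 ± 0.12 in control and -0.48 ± 0.24 in treated tumors (SD, n = 3 each, two-sided exact permutation p = 0.7), so the balance of these rivals differed by 0.08, less than the spread within either group. That of Tigit to Cd226 was 2.09, 1.61 and 1.03 in controls and 0.81, 0.38 and 1.99 in treated tumors (difference of means -0.52, exact permutation p = 0.4). In this ratio treated tumors 1 and 2 lay below every control and treated tumor 3 lay among them. Icos to Cd28 was -0.13 ± 0.29 in control and 0.30 ± 0.17 in treated tumors (SD, n = 3 each, exact permutation p = 0.2). Btla to Cd160 was 0.72, 0.58 and 0.11 in controls and 0.26, -0.47 and -0.55 in treated tumors (difference -0.73, exact permutation p = 0.2). The groups overlapped in each of the 4 ratios. Adjusted over all 14 ratios compared, the exact permutation p-values lay between 0.56 and 0.9.

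**Figure D4:**
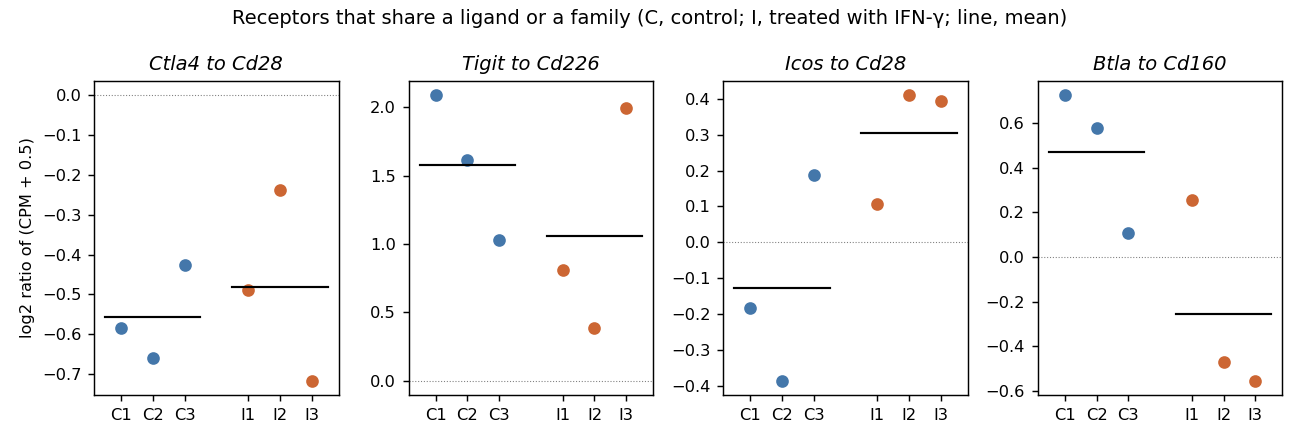
Log2 ratio of CPM plus 0.5 (vertical axes) for 4 pairs of receptors in control tumors 1 to 3 (C, blue) and treated tumors 1 to 3 (I, orange), with group means as lines and a dotted line at 0, where both genes are level in CPM. The groups overlap in all 4, and the Tigit to Cd226 ratio of treated tumor 3 (1.99) lies among the controls.

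The ligands of these receptors were read from the same fits. Of 15 ligand genes, 14 were tested. With all 6 tumors 0 passed the test, 6 had an unadjusted p under 0.05 and DESeq2 called 1, Ceacam1. In the 5 tumors 4 rose and 2 fell, beside 2.46% of all genes higher and 0.723% lower. For each of these ligands, treated tumor 3 lay nearer the control mean than treated tumors 1 and 2 did. Leaving it out for its marker values thus enlarges their fold changes, and this fit is not independent support for a change. The ligands of PD-1 are encoded by Cd274 and Pdcd1lg2. Cd274 rose (log2 fold change 1.01, SE 0.21, adjusted p = 0.0398, edgeR), while Pdcd1lg2 had 0.80 with an SE of 0.44 (adjusted p = 0.433, edgeR). Of the ligands of CD28 and CTLA-4, Cd86 rose by 0.73 (adjusted p = 0.0394, edgeR) and Cd80 had -0.20 (adjusted p = 0.444, edgeR). In all 6 tumors Cd274 had 0.69 (adjusted p = 0.565, edgeR) and Cd86 0.55 (adjusted p = 0.400, edgeR). Icosl stood just outside the threshold, at 0.80 (adjusted p = 0.0505, edgeR), with every treated tumor above every control in the 6 tumors.

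MHC class II, the ligand of LAG-3, showed the largest rise among the ligands. H2-Ab1 was at 28.1, 49.9 and 45.8 CPM in control tumors and at 98.7, 115.6 and 58.0 CPM in treated tumors, without overlap. In the 5 tumors its log2 fold change was 1.36 (edgeR, adjusted p = 0.0161), compared with 1.14 (edgeR, adjusted p = 0.257) when all 6 were fitted. H2-Aa, its partner chain, had 1.24 (adjusted p = 0.0218, edgeR) and then 0.996 (adjusted p = 0.314, edgeR). Fgl1, another LAG-3 ligand listed, had 3 counts in all and was not tested.

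Both ligand genes that fell encode adhesion proteins. Ceacam1, described as a partner of TIM-3, was at 64.6, 80.7 and 51.7 CPM in control tumors and at 34.5, 30.6 and 43.0 CPM in treated tumors, every one below every control. Its log2 fold change was -1.02 (SE 0.17, adjusted p = 0.0239, edgeR) in the 5 tumors. With treated tumor 3 included it was -0.87 (SE 0.18, adjusted p = 0.196, edgeR). Ceacam1 thus ran opposite to Havcr2. With DESeq2 both passed in all 6 tumors, among the 125 higher and 71 lower genes that it called. Pvr, which encodes the shared ligand of TIGIT and CD226, was at 164.4, 152.2 and 121.9 CPM in controls and at 87.0, 78.1 and 138.2 CPM in treated tumors. It fell in the 5 tumors (log2 fold change -0.83, adjusted p = 0.0184, edgeR) but had -0.53 (adjusted p = 0.437, edgeR) in all 6, where treated tumor 3 lay within the control range. Pvr, like the epithelial sum above and Krt20, which made up most of it, was lower in treated tumors 1 and 2 than in the controls. Krt18 and Cdh1 were also lower there, Krt8 and Vil1 overlapped the controls, and Epcam, with 39 counts in all, was higher. The part of tumor cell RNA in the Pvr values was not tested. The nectins, which bind the same receptors, did not pass: Nectin2 had -0.09 and Nectin3 0.24 in the 5 tumors. Lgals9, another TIM-3 partner, had 0.05. Lgals3 had -0.12, and Tnfrsf14, the ligand of BTLA and CD160, had 0.67 (adjusted p = 0.115, edgeR).

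Genes around the receptors were examined from lists chosen with earlier results of these data known. In all 6 tumors 0 genes of these lists passed the test. Of 22 genes for signalling below the receptors, 2 rose in the 5 tumors and 0 fell, with 14 at an unadjusted p under 0.05. These were Ptpn6, the phosphatase SHP-1 (log2 fold change 0.63, adjusted p = 0.018, edgeR), and Grap2, the adaptor GADS (0.90, adjusted p = 0.021, edgeR). Ptpn11, the phosphatase SHP-2 that PD-1 recruits, had -0.07. Of 12 further inhibitory receptors, Lair1, which binds collagen (1.05, adjusted p = 0.012, edgeR), Entpd1, which encodes CD39 (0.73, adjusted p = 0.025, edgeR), and Vsir, which encodes VISTA (0.45, adjusted p = 0.044, edgeR), rose, and 0 fell. All 3 are also known from myeloid cells. Of 8 tested genes of the TNF receptor and ligand list, Cd40, carried by antigen-presenting cells, rose (1.02, adjusted p = 0.045, edgeR). With all 6 tumors the log2 fold change was 0.44 for Ptpn6, 0.64 for Grap2, 0.83 for Lair1, 0.56 for Entpd1, 0.33 for Vsir and 0.62 for Cd40. Each was smaller than in the 5 tumors, so those rises too rest in part on leaving out treated tumor 3.

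Of 13 tested transcription factors linked to T cell exhaustion, 0 passed in the 5 tumors, with 5 at an unadjusted p under 0.05. Among 12 T cell markers 1 passed, Cd6 (1.09, adjusted p = 0.029, edgeR), with 12 of 12 positive and a median of 0.88, close to the 0.82 of the 10 receptors. None of 4 regulatory T cell markers passed, and of 6 NK cell markers Klrk1 did (1.09, adjusted p = 0.012, edgeR). With all 6 tumors Cd6 had 0.70 and Klrk1 0.71, 0 of these T cell and NK cell markers passed, and the T cell median was 0.52. Treated tumor 3 was left out for marker sums that include these genes. Their rise in the 5 tumors therefore follows in part from that choice. Of 8 macrophage markers 5 rose in the 5 tumors.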

How the data were processed

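The 6 tumors were total RNA libraries, extracted with Trizol. Raw counts per gene, in whole numbers and without normalization, were deposited by the authors. Their processing notes name HISAT2 and mm10. The counting program, strandedness and annotation release are not given in the sources used here. Of the 55487 identifiers, 99.53% were in GENCODE M21 (GRCm38), which gave coordinates and exon lengths. All 6 columns were used.

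The members and gene lists were chosen with earlier results of these data known. Counts were tested with edgeR 4.0.16 in R 4.3.3 (TMM, default filter on low counts, quasi-likelihood test, Benjamini-Hochberg adjustment over all genes tested, threshold 0.05). SE is the log2 fold change divided by the square root of F. Groups followed the labels. Ratios used log2 of CPM plus 0.5 and two-sided exact permutation tests (SciPy 1.17.1). Alternatives were DESeq2 1.42.0, limma 3.58.1 (voom), other scaling, filters, pseudocounts and sample sets, and a replicate block. DESeq2 and voom without treated tumor 3 (IFN-γ group) were added after seeing the data. The text names the receptors, their listed ligands, the CD3 genes, and from other lists the genes past the threshold, at most 4 a list, with markers that bear on a receptor. Ptpn11 was named after its value was seen. The scripts were tested on simulated counts. No 2 libraries were duplicates.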

Additional observations from a re-analysis of the deposited data

How the results depend on the processing

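Most changes of call came from treated tumor 3. Fits that each left out 1 tumor gave 4 to 381 higher genes, 2 to 112 lower genes, 0 to 2 receptors and 0 to 6 ligands past the threshold, the highest each time without treated tumor 3. On the same 5 tumors, DESeq2 gave 624 higher and 249 lower genes, 4 receptors and 8 ligands, and limma-voom gave 422, 107, 2 and 7. In all 6 tumors there were 12 higher and 5 lower genes. DESeq2 gave 125 and 71, with 1 receptor and 1 ligand. Without a filter on low counts there were 150 and 70, with 1 receptor and 3 ligands. The first 2 tumors of each group alone gave 528 and 244, with 1 receptor and 4 ligands. Scaling by library size only gave 7 higher genes, and limma-voom gave 3 lower genes. Same-numbered tumors did not deviate together (r = -0.21, -0.01 and -0.21), and their numbers were treated as names only. The replicate block gave 5 higher and 2 lower genes, 0 receptors and 0 ligands.

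Signs changed for some genes and ratios, none of which passed the test in either direction. With 1 tumor at a time left out, the log2 fold change ran from -0.12 to 0.87 for Ctla4, from -0.27 to 0.18 for Btla, from -0.13 to 0.61 for Cd28, from -0.20 to 0.81 for Pdcd1lg2, from -0.13 to 0.052 for Lgals9, from -0.12 to 0.18 for Lgals3 and from -0.26 to 0.24 for Nectin3. The difference in log2 ratio ran from -0.046 to 0.19 for Ctla4 to Cd28, and relative to the CD3 genes from -0.044 to 0.32 for Lag3, from -0.016 to 0.59 for Cd160 and from -0.070 to 0.25 for Cd226. On the 5 tumors, DESeq2 and limma-voom turned Btla (0.19 and 0.22), Lgals9 (0.056 and 0.052), Lgals3 (-0.12 and -0.12) and Nectin3 (0.24 and 0.25). With 2 tumors a group these were 0.17, 0.065, -0.17 and 0.31. The causes were not tested. Among the receptor fold changes under alternatives, 142 kept sign and side of the threshold, 11 newly passed it and 7 changed sign. Cd160, Btla and Ctla4 had the fewest counts, which limits their precision.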

Other observations

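Tnfrsf9, which encodes the costimulatory receptor 4-1BB, was noticed after its values were seen. It was at 34.1, 34.8 and 33.5 CPM in control tumors and at 28.3, 28.3 and 37.2 CPM in treated tumors 1, 2 and 3, and its log2 fold change in the 5 tumors without treated tumor 3 was -0.28 (edgeR, adjusted p = 0.152). As with Tigit, treated tumors 1 and 2 were the lowest of the 6, although the summed CD3 genes were highest there. Its relatives Tnfrsf4 (OX40), Tnfrsf18 (GITR) and Cd27 had their lowest levels in treated tumor 3, at 1.42, 2.41 and 1.98 CPM, and their highest in treated tumor 2, at 4.46, 7.58 and 6.96 CPM. Neither comparison was tested further.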
